A study of Mus musculus with 30 samples.

Results

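Oxidative phosphorylation subunits are the genes whose products build the 5 respiratory complexes of the mitochondrion, and they are described here in kidney and gastrocnemius muscle of mice on a control or a western diet. Members were taken by symbol from both count tables (the mt-Nd, mt-Co, mt-Cytb and mt-Atp genes, Ndufa, Ndufb, Ndufc, Ndufs and Ndufv, Sdha to Sdhd, the Uqcr genes, Cyc1, Cox4 to Cox8 and the Atp5 genes, without entries marked -ps). This gave 104 genes, 91 of them nuclear and 13 mitochondrial, of 55825 gene identifiers in the series. Complex I (NADH dehydrogenase) holds 38 nuclear and 7 mitochondrial members, complex II (succinate dehydrogenase) 4 nuclear members, complex III (the cytochrome bc1 complex) 9 and 1, complex IV (cytochrome c oxidase) 21 and 3, and complex V (ATP synthase) 19 and 2. Ndufa4 and Ndufa4l2 were counted in complex IV, where their products reside. The symbols of 3 members differ between the tables (Atp5md, Atp5pb and Atp5s).

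All libraries came from male wild-type C57BL/6J mice kept at thermoneutrality (30 to 32 °C) from 6 weeks of age. CD mice received a control diet with water by gavage, WD mice a western diet with water by gavage, and WD + CHP mice the western diet with cyclo(His-Pro), a cyclic dipeptide abbreviated CHP, at 20 mg/kg by gavage 3 times per week. Diets and gavage both began in Week 7, and tissues were collected in Week 24 after a 3-h fast. Each tissue and group has 5 libraries, 30 in all, and whether kidney and gastrocnemius came from the same mice is not given. The labels name a NucleoSpin kit for gastrocnemius and Direct-zol for kidney, whereas the study's methods name Direct-zol for both, so whether RNA preparation differed between the tissues is not settled here.

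Complexes I, III and IV pass electrons from NADH and succinate to oxygen and pump protons out of the mitochondrial matrix, complex II feeds electrons from succinate without pumping, and complex V uses the returning protons to make ATP. The mitochondrial genome encodes core membrane subunits of complexes I, III, IV and V, and every subunit of complex II is nuclear, so both genomes must supply transcripts for the same machines. Kidney tubules, which reabsorb salts and solutes, and contracting muscle are both rich in these complexes. Several nuclear subunits of complex IV exist as a general form and a muscle form.

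Because the nuclear members are known for sharing promoter elements, the stretch just upstream of the transcription start is shown for 5 members that carry such an element and passed a test below. RefSeq promoter windows (GRCm38.p6, 250 bases before to 50 after the start) were matched by symbol for 69 of the 91 nuclear members. On both strands, the NRF1 motif GCGC, any base, TGCGC, was found in 17 members (24.6%), against 5.19% of 27025 genes and 7.41% of 16794 coding genes with a window. The YY1 motif AAGATGGCG was found in 7 members (10.1%, against 2.22% of coding genes), the GABP motif CCGGAAGT in 5 (7.25%, against 5.87%) and the ERR motif TCAAGGTCA in 2 (2.90%, against 0.387%). No motif contains another of these. At least 1 of the motifs lay in 27 of the 69 members (39.1%) and in 14.7% of coding genes. Among members with a window that were called below, it was 5 of 11 in kidney WD vs. CD and 4 of 9 in gastrocnemius WD + CHP vs. CD. The stretches are thus examples, and a link of motif and call was not tested. Each stretch is read 5′ to 3′ on the gene's strand with the motif in capitals, so a motif on the opposite strand appears as its reverse complement, and each stretch ends at the base before the RefSeq start. Sdhd (chr9:50603850-50603969, minus strand, motif on the opposite strand) has the NRF1 motif, Uqcr11 (chr10:80406822-80406941, minus strand) and Uqcrh (chr4:116075071-116075190, minus strand, motif on the opposite strand) the GABP motif, Cox6a1 (chr5:115348959-115349120, minus strand) 2 NRF1 motifs, the first reading the same on both strands and the other on the opposite strand, and Atp5g3 (chr2:73911327-73911446, minus strand, motif on the opposite strand) the ERR motif.
Sdhd: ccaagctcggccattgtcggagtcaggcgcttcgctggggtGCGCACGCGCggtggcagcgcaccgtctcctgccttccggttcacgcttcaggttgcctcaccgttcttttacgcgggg
Uqcr11: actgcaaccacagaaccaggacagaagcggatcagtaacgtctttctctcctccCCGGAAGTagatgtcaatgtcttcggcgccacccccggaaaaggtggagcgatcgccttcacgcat
Uqcrh: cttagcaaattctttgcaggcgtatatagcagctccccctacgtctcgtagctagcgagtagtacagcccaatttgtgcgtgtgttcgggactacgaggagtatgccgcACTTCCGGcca
Cox6a1: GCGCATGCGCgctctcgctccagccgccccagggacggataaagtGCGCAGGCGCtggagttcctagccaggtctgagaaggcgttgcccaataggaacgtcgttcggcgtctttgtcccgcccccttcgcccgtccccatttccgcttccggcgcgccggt
Atp5g3: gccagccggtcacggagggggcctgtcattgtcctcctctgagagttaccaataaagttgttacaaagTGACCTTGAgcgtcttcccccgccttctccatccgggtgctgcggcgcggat

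Sequencing depth ranged from 37189192 to 38211422 counted reads per kidney library and from 50319024 to 53282969 per gastrocnemius library. Levels are in CPM, read counts relative to the TMM-scaled size of their library, scaled within each tissue. Defining markers matched both tissue labels. The summed level of 8 proximal tubule genes was 27700 to 35570 CPM in kidney and 220.5 to 379.5 CPM in gastrocnemius, where Slc13a1 and Slc22a6 were at 0 in every library, and that of 8 fast muscle fibre genes was 160600 to 219300 CPM in gastrocnemius. The low-count filter kept 83 nuclear and all 13 mitochondrial members in kidney, and 85 and 13 in gastrocnemius. Ndufa11b, Ndufs6b and Cox6c2, which are annotated as processed pseudogenes, the testis isoforms Cox7b2 and Cox8c, and a second Atp5o identifier that held no read were too low in both tissues, and Ndufb4c, a further processed pseudogene, and Cox8b were too low in kidney.

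Gastrocnemius WD replicate 5 stood apart from the other muscle libraries in these genes. It had the highest level of its group in 41 of 42 nuclear members whose longest transcript was under 1000 bases, with a median ratio of 1.90 to the mean of the other 4 WD libraries, and in 36 of 43 longer members (median ratio 1.30). Other coding genes gave 73.6% (320 of 435, median ratio 1.37) under 1000 bases and 21.5% (2795 of 12982, median ratio 0.974) above. Atp5k, a small subunit of ATP synthase, reached 71.7 CPM in that library and 12.8 to 19.0 CPM in the other 4. Cox8b, the muscle form of a complex IV subunit, reached 121 CPM against 19.8 to 37.1 CPM. The mitochondrial members had a median ratio of 1.20 there and the highest level in 9 of 13, but did not move together. The ratio was 4.57 for mt-Atp8, 3.51 for mt-Nd3, 2.86 for mt-Nd4l, 2.43 for mt-Atp6, 2.31 for mt-Co2 and 2.16 for mt-Co3. The other mitochondrial members ran from 0.516 (mt-Nd6) to 1.20 (mt-Nd1). Counts of called members in gastrocnemius comparisons, and the values those comparisons turn on, are therefore given with and without this library.

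**Figure D1:**
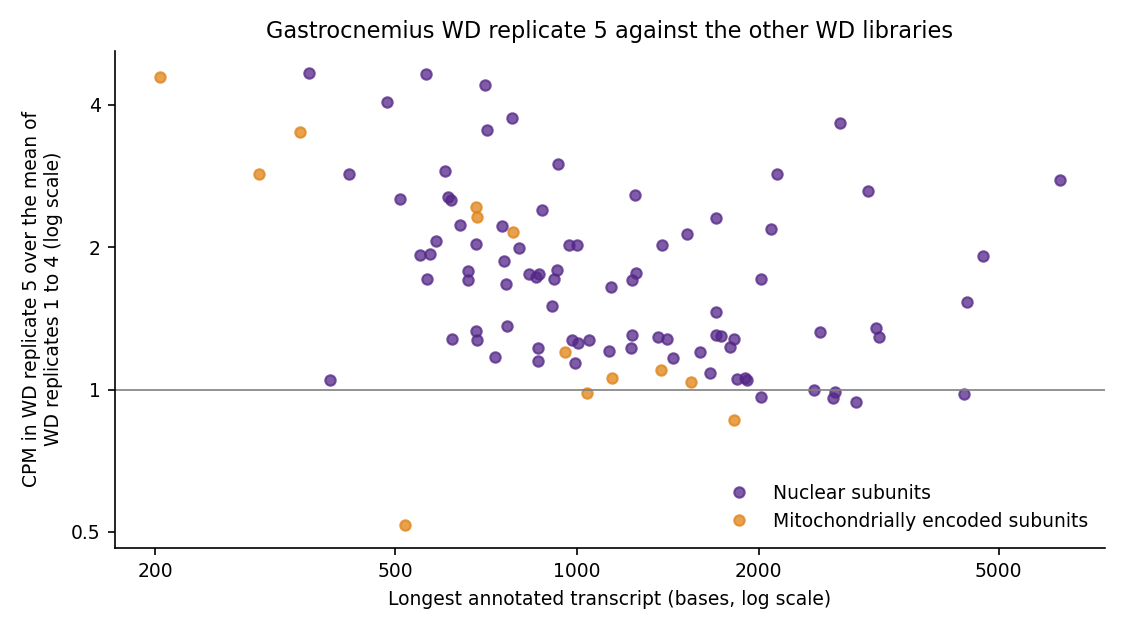
Ratio of the CPM of gastrocnemius WD replicate 5 to the mean of the other 4 WD libraries (y axis, log scale) against the longest annotated transcript in bases (x axis, log scale), 1 point per nuclear or mitochondrial member. Short nuclear members and mt-Atp8 sit highest, and a line marks a ratio of 1.

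Transcripts of the mitochondrial genome were far more abundant than those of all nuclear members together. In kidney the 13 mitochondrial members took 18.3% ± 0.752 of counted reads in CD mice (mean ± SD, n = 5), 19.1% ± 1.02 with WD and 19.8% ± 0.903 with WD + CHP. The nuclear members took 1.43% ± 0.0508, 1.51% ± 0.0581 and 1.47% ± 0.0401. In gastrocnemius the mitochondrial share was 8.82% ± 1.05, 9.92% ± 0.576 and 10.4% ± 0.778, and the nuclear share 1.40% ± 0.115, 1.61% ± 0.241 and 1.62% ± 0.117, with 2.02% in WD replicate 5. Without that library the WD shares were 9.82% ± 0.616 and 1.51% ± 0.0846 (n = 4). Reads of the mitochondrial members outnumbered those of the nuclear members 11.8 to 14.6 times in kidney and 5.10 to 7.26 times in gastrocnemius, so the ratios of the tissues did not overlap. Within each tissue the ranges of the 3 groups overlapped for each of these shares.

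Per kilobase of annotated exon, the mitochondrial members fell into an abundant and a scarce set in kidney, with mt-Nd6 between the sets in gastrocnemius. In kidney CD libraries mt-Co1, the catalytic subunit of complex IV, averaged 38922 CPM per kb, mt-Cytb, the cytochrome b of complex III, 29620 and mt-Nd1, a membrane subunit of complex I, 27486. mt-Nd2, mt-Nd4 and mt-Nd5, the proton-pumping subunits of complex I, lay at 15507, 13293 and 12530, and mt-Nd6, which is encoded on the opposite strand of the circle, at 4924. By contrast mt-Co3, also a core subunit of complex IV, averaged 16.8 CPM per kb. The 6 scarce genes (mt-Co2, mt-Co3, mt-Atp6, mt-Atp8, mt-Nd3 and mt-Nd4l) each had fewer than 100000 counts in a tissue. For 5 of them, all but mt-Atp8, an annotated gene on chromosome 1 matches at least 99% of their length at an identity of 99.7 to 100%, and that place also took reads. Over all kidney libraries mt-Co2 was given 7976 reads and its copy Gm28661 8215, while mt-Nd3 was given 1746 and its copy 809. In gastrocnemius mt-Co2 was given 33636 and its copy 17391, while mt-Atp6 was given 17657 and its copy 18197. A further copy of mt-Co2 on chromosome 2, Gm13341, matches its whole length at 95.9% identity. That copy was given 32859 reads in kidney and 2032 in gastrocnemius. By comparison mt-Co1 was given 34287283 reads in kidney. How reads that match both places were counted is not given in the sources used here, so the levels of these 5 genes are uncertain, and the 7 abundant genes are summarised separately below. Of those, mt-Nd4 has an identical copy over 63.6% of its length and mt-Co1 a copy of 99.8% identity over 31.3%. Another copy of mt-Co1, Gm13340, matches its whole length at 97.6% identity and was given 27303 reads in kidney.

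**Figure D2:**
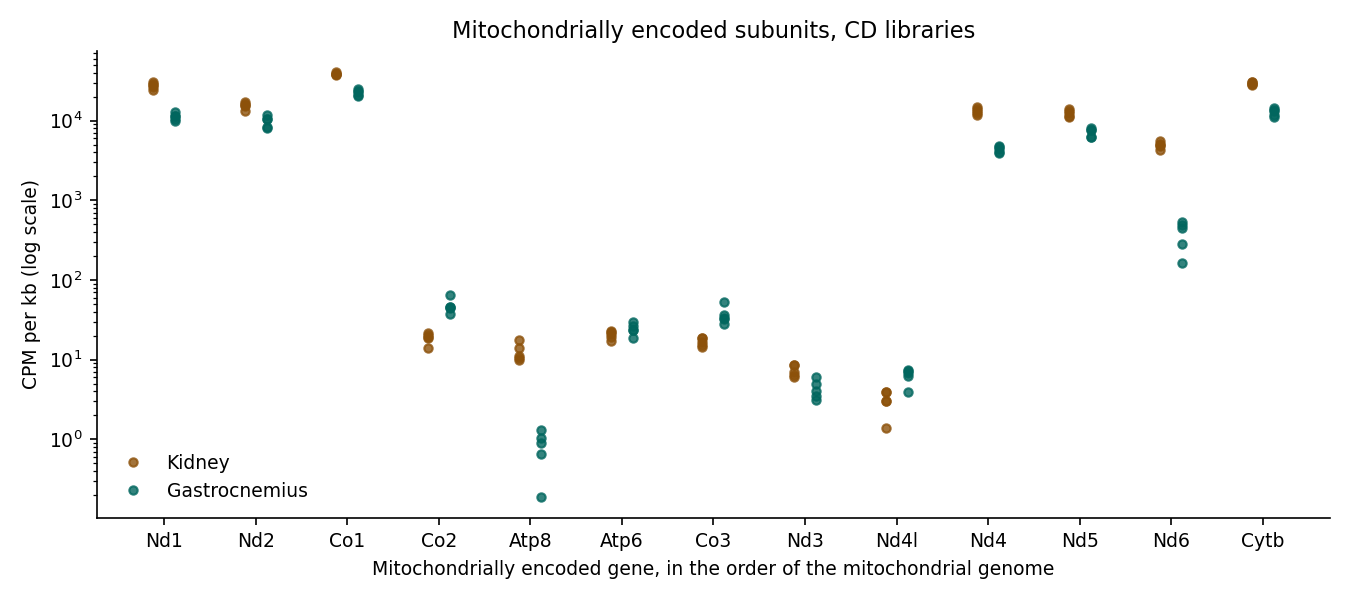
CPM per kb (log axis) of the 13 mitochondrial members in their genome order, in the 5 CD libraries of kidney and of gastrocnemius. In both tissues mt-Co1 lies highest and the 6 scarce genes lowest, and in gastrocnemius mt-Nd6, at a mean of 388, lies between mt-Nd4, at 4377, and mt-Co2, at 47.9.

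The first comparison, WD vs. CD in kidney, asks how the diet altered these genes. A minority of the nuclear members passed the test as higher in WD, at least 1 in each complex, and no member passed it as lower. Of 83 nuclear members tested, 80 had a positive log2 fold change with a median of 0.13, against a median of 0.0015 over all 17120 genes, and 14 were higher at an adjusted p under 0.05 (edgeR quasi-likelihood test with Benjamini-Hochberg adjustment), against 9.65% of all genes called in either direction and 4.62% called higher. None of the 13 mitochondrial members passed that test, although all 13 had a positive log2 fold change (median 0.10, lowest adjusted p 0.0649). Over the 7 abundant mitochondrial genes the median was 0.08. The median over all 13 was 0.06 without WD replicate 3. Of the members, 2 mitochondrial and 56 nuclear ones had an unadjusted p under 0.05, as did 4263 of all 17120 genes. As these are whole tissues, more cells of a type and more RNA per cell cannot be told apart.

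In complex III 4 of 9 nuclear members were called, the highest share of the 5 complexes, and the median log2 fold change was 0.14. Uqcrb, a small subunit at the ubiquinone site (chr13:66900617-66905378), measured 118, 117, 126, 125 and 114 CPM in CD and 131, 132, 140.2, 141 and 147 CPM in WD. Its groups did not overlap, and it was upregulated by 0.20 ± 0.052 (log2 ± SE, adjusted p = 0.0202). Uqcrq, another small subunit, measured 89.6, 107, 114, 96.9 and 104 CPM in CD and 123, 104, 127, 129 and 133 CPM in WD. WD replicate 2 was the 1 library of its group within the range of CD, and Uqcrq was upregulated by 0.27 ± 0.071 (adjusted p = 0.0261). The hinge protein gene Uqcrh and the small subunit gene Uqcr11, whose upstream sequences are shown above, were upregulated by 0.21 (adjusted p = 0.0230) and 0.21 (adjusted p = 0.0410).

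Complex IV held the largest single change. Cox6a2, the heart and muscle form of subunit VIa (chr7:128205435-128206387), measured 0.995, 1.40, 1.23, 0.516 and 1.5 CPM in CD, 1.56, 2.17, 3.44, 3.24 and 2.69 CPM in WD, and 1.80, 1.42, 1.64, 1.97 and 2.57 CPM in WD + CHP. Every WD library lay above every CD library, and the gene was upregulated by 1.21 ± 0.255 on the log2 scale (adjusted p = 0.00721). It is a very low transcript in kidney, where the general form Cox6a1 averaged 343 CPM in CD. The summed level of the fast muscle fibre genes was also higher without overlap, at 17.96 to 19.74 CPM in CD and 22.66 to 29.28 CPM in WD, with Myh4 at 0 in every kidney library. The genes of that list did not move together, as 2 of the 4 tested were positive and their median was -0.0085. The 1 called was Pvalb (0.51, adjusted p = 0.000643), which distal tubule cells of the kidney also express, while Atp2a1 was at -0.50 (adjusted p = 0.251). Of the slow muscle fibre genes 2 were tested, and they were at 0.02 and 0.73 in WD vs. CD with 0 called. In WD + CHP vs. CD they were at 0.06 and 0.95, with 1 called higher. The part of muscle transcripts in the Cox6a2 result was not tested. Cox6b2, the testis form of subunit VIb, measured 2.59 to 3.41 CPM in CD and 3.57 to 4.49 CPM in WD and was upregulated by 0.39 ± 0.094 (adjusted p = 0.0153). Cox5b, a zinc-binding subunit, was upregulated by 0.17 (adjusted p = 0.0338), and the complex's median over 17 nuclear members was 0.17.

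In complex V, 1 of 18 nuclear members was called. Atp5g1, 1 of 3 genes for the identical mature subunit c of the proton-driven ring (chr11:96068852-96075670), measured 147, 161, 163, 154 and 160.4 CPM in CD and 189.8, 166, 185, 199 and 189 CPM in WD. The groups did not overlap, and it was upregulated by 0.24 ± 0.056 (adjusted p = 0.0128). All 18 members had a positive value, with a median of 0.11.

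Complexes I and II were called at 5 of 35 and 1 of 4 nuclear members, with medians of 0.14 and 0.11. Ndufa3, an accessory subunit of complex I (chr7:3617373-3620327), measured 88.5, 97.0, 102, 95.7 and 93.6 CPM in CD and 110.0, 104, 114, 109.9 and 104 CPM in WD. All WD libraries were higher than all CD libraries, by 0.18 ± 0.046 in the fit (adjusted p = 0.0187). The other called genes of complex I were the core subunits Ndufs7 (0.15, adjusted p = 0.0377) and Ndufv2 (0.17, adjusted p = 0.0396) and the accessory subunits Ndufb6 (0.18, adjusted p = 0.0414) and Ndufb4 (0.26, adjusted p = 0.0479). Sdhd, a membrane anchor of complex II, measured 147, 148, 149, 140.4 and 147 CPM in CD and 161, 152, 160.3, 165 and 160.4 CPM in WD. Its groups did not overlap, with a log2 fold change of 0.13 ± 0.037 (adjusted p = 0.0358). The lowest value of any member was that of Ndufb2, an accessory subunit of complex I, at -0.21 ± 0.082 (adjusted p = 0.119), and the other negative values belonged to Ndufv3 (-0.08) and Cox4i2 (-0.0036).

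The nuclear members are short genes, with a median longest transcript of 1005 bases against 3393 bases for 14296 other coding genes. Below 700 bases their median log2 fold change was 0.18 and that of other coding genes 0.07, from 700 to under 1000 bases 0.16 and 0.07, from 1000 to under 1500 bases 0.10 and 0.03, from 1500 to under 2500 bases 0.08 and 0.01, and from 2500 bases 0.10 and -0.0051. Members were thus above other genes in every length class, while both were highest among the shortest transcripts. With transcript length and GC content in the fit, 11 members were called higher, against 11% of all genes called in either direction and 4.99% called higher. The count of 14 moved with single libraries, to 5 without CD replicate 1, 31 without CD replicate 3, 8 without CD replicate 4, 7 without WD replicate 1, 29 without WD replicate 2, 5 without WD replicate 3, 5 without WD replicate 4 and 7 without WD replicate 5. Cox6a2, Atp5g1, Cox6b2 and Uqcrb kept their calls under all 21 alternatives tried. Levels of proximal tubule markers moved with the diet as well, from a sum of 31560 to 34920 CPM in CD to 27700 to 31160 CPM in WD (1 of 8 genes higher and 3 lower). Thick ascending limb and distal tubule markers summed to 4138 to 4656 and 4180 to 4750 CPM, with 2 of 5 higher (Slc12a3 and Calb1). Fibroblast markers summed to 51.98 to 75.17 and 63.99 to 75.75 CPM, with 1 of 3 higher (Col1a1), and 1 of 6 white adipocyte markers tested was lower. The part of these cells in the result was not tested.

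**Figure D3:**
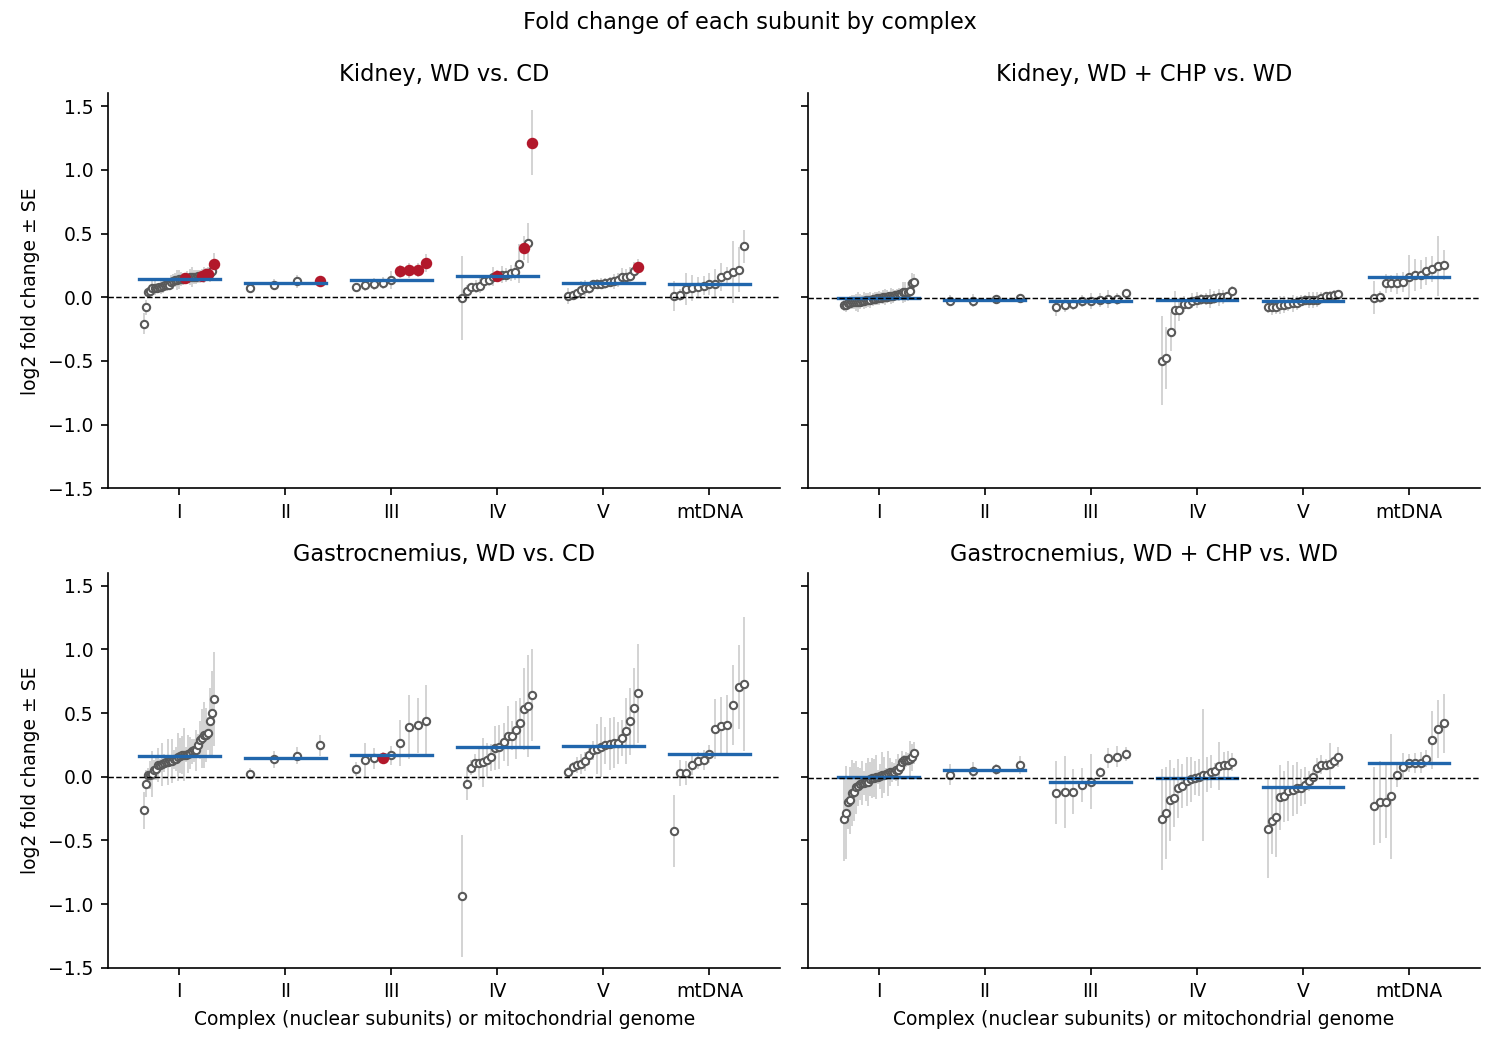
Log2 fold change ± SE (y axis) of each tested member, grouped by complex and genome (x axis), in kidney and gastrocnemius for WD vs. CD and WD + CHP vs. WD. Red points have an adjusted p under 0.05, blue lines mark group medians and the dashed line the median of all genes. In kidney WD vs. CD nearly all points lie above 0, and in WD + CHP vs. WD nuclear points lie around 0 with none called.

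The second comparison, WD + CHP vs. WD in kidney, asks what CHP altered on the western diet. Of 96 members tested, 0 were called by edgeR, against 0.105% of all genes, and DESeq2 also called 0. An unadjusted p under 0.05 was found for 1 member and for 1958 of all 17120 genes. The nuclear members had a median of -0.02 with 22 of 83 positive, and the mitochondrial members a median of 0.16 with 12 of 13 positive. The latter median rested on single libraries of the WD + CHP group, at 0.10 without its replicate 4 and 0.24 without its replicate 1. For the 7 abundant mitochondrial genes the median was 0.11, with 7 of 7 positive. mt-Nd2 averaged 16938 ± 1518 CPM (SD, n = 5) in WD and 19750 ± 3458 CPM in WD + CHP, with a log2 fold change of 0.22 ± 0.104 (adjusted p = 0.435). mt-Co1 averaged 60712 ± 1909 and 60941 ± 2041 CPM, which differed by less than the spread of the libraries. Cox6a2 had a log2 fold change of -0.48 ± 0.244 (adjusted p = 0.486), Ndufa4l2, the hypoxia-inducible relative of Ndufa4, -0.27 ± 0.156 (adjusted p = 0.541), and Ndufv3, an accessory subunit of complex I, 0.12 ± 0.058 (adjusted p = 0.440).

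WD + CHP vs. CD in kidney shares its libraries with both comparisons above, and its values are set beside theirs. It called 11 members, all higher, against 12.1% of all genes called and 6.25% called higher. They were 9 nuclear members (median of all 83, 0.11) and 2 mitochondrial ones (median of all 13, 0.28, and of the 7 abundant genes, 0.21, with 1 called). mt-Cytb (chrM:14145-15288) measured 34785, 33250, 35336, 33544 and 32515 CPM in CD, 36564, 39692, 41821, 37767 and 35208 CPM in WD and 35142, 43374, 43722, 42550 and 41206 CPM in WD + CHP. Replicate 1 was the 1 WD + CHP library within the range of CD. The log2 fold change was 0.17 ± 0.065 in WD vs. CD (adjusted p = 0.101), 0.11 ± 0.065 in WD + CHP vs. WD (adjusted p = 0.558) and 0.28 ± 0.065 in WD + CHP vs. CD (adjusted p = 0.0104). mt-Co3, 1 of the genes with a near-identical nuclear copy, was the other one called (0.36 ± 0.111, adjusted p = 0.0418). mt-Nd6 averaged 2556 ± 241, 2672 ± 358 and 3018 ± 668 CPM in the 3 groups.

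Among the nuclear members of that comparison, Cox6a1, the general form of subunit VIa (chr5:115345642-115348981), measured 324, 356, 363, 328 and 342 CPM in CD and 387, 376, 409, 386 and 383 CPM in WD + CHP. The groups did not overlap (0.18 ± 0.045, adjusted p = 0.0154). Ndufb4 measured 50.9, 60.6, 62.9, 51.5 and 51.3 CPM in CD and 65.1, 69.0, 80.8, 63.6 and 63.5 CPM in WD + CHP. It too was higher in every WD + CHP library (0.30 ± 0.081, adjusted p = 0.0233). Atp5c1, the rotating gamma subunit of ATP synthase (0.13, adjusted p = 0.0266), Uqcrq (0.25, adjusted p = 0.0309) and Uqcrc2, a core protein of complex III (0.11, adjusted p = 0.0343), likewise had groups that did not overlap. Uqcrh, Atp5h, Ndufa9 and Ndufv2 completed the 9, at 0.12 to 0.19. The count was 4 without CD replicate 1, 5 without CD replicate 5 and 22 without CD replicate 3. Leaving out replicate 1 of the WD + CHP group gave 22, its replicate 2 gave 6 and its replicate 3 gave 2. Scaling to total counts left 2 (mt-Cytb and Ndufb4). Of the kidney markers, 1 of 8 for proximal tubule was higher and 2 were lower in this comparison, and 2 of 5 for thick ascending limb and distal tubule were higher. Of other markers tested, 1 of 3 for fibroblasts, 1 of 4 for fast and 1 of 2 for slow muscle fibres were higher. All 3 endothelial markers were negative with 1 lower, and no adipocyte or immune cell marker was called. The part of these cells in the result was not tested.

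**Figure D4:**
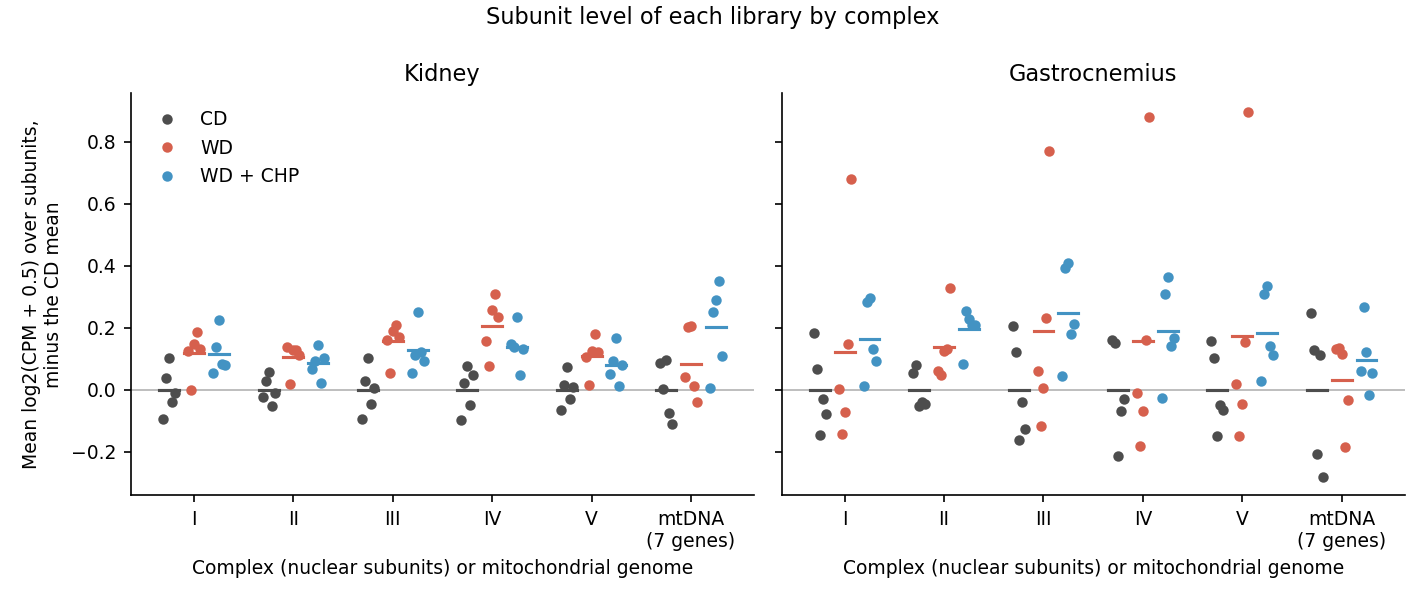
Mean log2(CPM + 0.5) over the nuclear subunits of each complex and over the 7 abundant mitochondrial genes, minus the CD mean (y axis), by group (x axis) in kidney and gastrocnemius. Dots are libraries and lines group means. Gastrocnemius WD replicate 5 lies above the rest of its group for the nuclear complexes.

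In gastrocnemius, the library average of the nuclear members (mean log2(CPM + 0.5) minus its CD mean) was 0 ± 0.132 (SD, n = 5) in CD libraries, 0.149 ± 0.359 in WD libraries and 0.184 ± 0.131 in WD + CHP libraries. It reached 0.76 in WD replicate 5, against a median of 0.01 in that group. The average over the 7 abundant mitochondrial genes was 0 ± 0.230, 0.0328 ± 0.140 and 0.0979 ± 0.107 in the 3 groups, and over all 13 it was 0 ± 0.167, 0.159 ± 0.244 and 0.295 ± 0.112. Without WD replicate 5 the WD averages were 0.0494 ± 0.156 and 0.0534 ± 0.0674 (n = 4). In WD vs. CD 1 of 98 members was called, against 8.63% of all genes called and 4.67% called higher. An unadjusted p under 0.05 was found for 18 of the 98 members and for 3662 of all 15419 genes. The count of called members was 9 with scaling to total counts and 4 by DESeq2. It was also 4 with transcript length and GC content in the fit, where 10.7% of all genes were called and 5.31% called higher. The nuclear median was 0.17 and the mitochondrial median 0.18 (0.09 over the 7 abundant genes), and 93 of 98 members were positive. Without WD replicate 5 no member was called by edgeR, against 7.93% of all genes, and 10 had an unadjusted p under 0.05, which was not counted over all genes in this fit. The nuclear median was then 0.0034 with 43 of 85 positive, and the mitochondrial median was 0.07.

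The called gene was Uqcrc2 (chr7:120635176-120659524), which measured 335, 337, 317, 322 and 314 CPM in CD, 348, 354, 369, 352 and 376 CPM in WD and 347, 388, 387, 354 and 369.9 CPM in WD + CHP. All WD libraries lay above all CD libraries, with a log2 fold change of 0.15 ± 0.044 (adjusted p = 0.0458), and 0.13 with an adjusted p of 0.0855 without WD replicate 5. The call was also lost, leaving 0 members, without CD replicates 3, 4 or 5 or WD replicates 1, 3 or 4, and 3 members were called without CD replicate 2. Close behind, and not called, were Ndufa9, an accessory subunit of complex I (0.17 ± 0.057, adjusted p = 0.0693), and Sdhb, the iron-sulphur subunit of complex II (0.25 ± 0.083, adjusted p = 0.0732). They were at 0.13 (adjusted p = 0.142) and 0.16 (adjusted p = 0.148) without WD replicate 5.

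WD + CHP vs. WD in gastrocnemius called 0 of 98 members by edgeR, against 0.409% of all genes, and DESeq2 called 2 (Ndufa10 and Uqcrc1). An unadjusted p under 0.05 was found for 8 members and for 1929 of all 15419 genes. The nuclear median was -0.0022, and that of the 7 abundant mitochondrial genes 0.11. Without WD replicate 5 the nuclear median was 0.18, all 85 nuclear members tested were positive and 1 member was called, against 0.354% of all genes. In the same fit 45 members had an unadjusted p under 0.05, which was not counted over all genes. In that fit members below 700 bases had a median of 0.23 and other coding genes 0.14, from 700 to under 1000 bases 0.17 and 0.09, from 1000 to under 1500 bases 0.17 and 0.05, from 1500 to under 2500 bases 0.18 and 0.02, and from 2500 bases 0.14 and -0.03. The called gene was mt-Atp6, the proton channel subunit of ATP synthase and 1 of those with a near-identical nuclear copy (0.74 ± 0.134, adjusted p = 0.0263). With all libraries it had 0.37 ± 0.229 (adjusted p = 0.546). Uqcrc1, a core protein of complex III (chr9:108936633-108949623), measured 522, 485, 553, 545 and 525 CPM in WD and 564, 603, 624, 579 and 604 CPM in WD + CHP. These groups did not overlap, at 0.18 ± 0.053 (adjusted p = 0.172). Ndufa10, an accessory subunit of complex I, was at 0.13 ± 0.042 (adjusted p = 0.206), and mt-Co1 at 0.14 ± 0.068 (adjusted p = 0.399). These 3 genes, when WD replicate 5 was left out, were at 0.18 (adjusted p = 0.173), 0.12 (adjusted p = 0.228) and 0.15 (adjusted p = 0.320).

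WD + CHP vs. CD, which shares libraries with both of these comparisons, called 16 members in gastrocnemius, all higher, against 9.4% of all genes called and 4.85% called higher. They were 12 nuclear members (median of all 85, 0.20) and 4 mitochondrial ones (median of all 13, 0.29, and of the 7 abundant genes, 0.20, with mt-Nd4 and mt-Co1 called). By complex, 4 of 36 nuclear members of complex I, 1 of 4 of complex II, 4 of 9 of complex III, 1 of 18 of complex IV and 2 of 18 of complex V were called. Without WD replicate 5, which is in neither group but enters the shared spread, 29 were called, against 11% of all genes. Leaving out CD replicate 3 gave 6, CD replicate 4 gave 9 and CD replicate 5 gave 9. Leaving out replicate 2 of the WD + CHP group gave 8, its replicate 3 gave 7 and its replicate 5 gave 9. Ndufa10, Ndufv1, Uqcrc1, Uqcrc2 and Uqcrfs1 kept their calls under all 21 alternatives.

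In complex I, Ndufa10 (chr1:92439010-92473860) measured 209, 212, 193, 209.7 and 189 CPM in CD, 224, 217, 225, 218 and 213 CPM in WD and 234, 247, 236, 237 and 247 CPM in WD + CHP. The CD and WD + CHP groups did not overlap (0.24 ± 0.042, adjusted p = 0.00218), and the WD libraries lay between them. Ndufv1, the subunit that oxidises NADH (chr19:4007384-4012806), measured 246, 271, 241, 245 and 237 CPM in CD, 260.3, 257, 277, 268 and 288 CPM in WD and 283, 289, 305, 297 and 309.6 CPM in WD + CHP. Its CD and WD + CHP libraries were also apart (0.26 ± 0.047, adjusted p = 0.00306). The core subunit Ndufs8 (0.32, adjusted p = 0.0303) and the accessory subunit Ndufb5 (0.30, adjusted p = 0.0372) were called too, as was Sdhd of complex II (0.23, adjusted p = 0.0454).

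In complex III the core protein genes Uqcrc1 and Uqcrc2, Uqcrfs1 and Cyc1 were called, and the mitochondrial member mt-Cytb was not. Uqcrc1 measured 528, 541, 461, 512 and 476 CPM in CD, below all 5 WD + CHP libraries given above (0.24 ± 0.053, adjusted p = 0.00977). Uqcrc2 was higher by 0.18 ± 0.044 (adjusted p = 0.0156). The Rieske iron-sulphur protein gene Uqcrfs1 measured 242, 250.3, 217, 228 and 206 CPM in CD and 263, 299, 293, 279 and 292 CPM in WD + CHP, again without overlap (0.32 ± 0.078, adjusted p = 0.0172). Cyc1, cytochrome c1, was upregulated by 0.30 ± 0.081 (adjusted p = 0.0262). In complex V the catalytic-head gene Atp5a1 (0.20, adjusted p = 0.0121) and the subunit c gene Atp5g3 (0.26, adjusted p = 0.0345) were called, and in complex IV the general form Cox6a1 (0.42 ± 0.117, adjusted p = 0.0339), which is the scarce form in muscle.

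Of the mitochondrial members, mt-Co1 (chrM:5328-6872) measured 38389, 36315, 31232, 35631 and 32337 CPM in CD, 37154, 39605, 38704, 35324 and 39187 CPM in WD and 40655, 42919, 43732, 40179 and 42300 CPM in WD + CHP. The lowest WD + CHP library was above the highest of either other group, and the log2 fold change to CD was 0.27 ± 0.068 (adjusted p = 0.0194). mt-Nd4 averaged 6032 ± 535, 6816 ± 468 and 7358 ± 444 CPM and was higher in WD + CHP than in CD by 0.29 ± 0.070 (adjusted p = 0.0175). mt-Co3 and mt-Atp6, with their near-identical copies, were called at 0.80 ± 0.233 (adjusted p = 0.0409) and 0.78 ± 0.231 (adjusted p = 0.0437). mt-Nd6 was the exception in direction. It measured 279, 257, 148, 237 and 85.7 CPM in CD, 197, 183, 188, 96.6 and 85.7 CPM in WD and 116, 173, 124, 128 and 115 CPM in WD + CHP, with overlapping groups and values of -0.42 ± 0.285 in WD vs. CD (adjusted p = 0.388) and -0.62 ± 0.285 in WD + CHP vs. CD (adjusted p = 0.187).

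Slow muscle fibre genes summed to 2977 to 5714 CPM in CD, 3772 to 7053 CPM in WD and 4425 to 6171 CPM in WD + CHP, and all 8 were positive in WD vs. CD with 0 called by edgeR. Fast fibre genes summed to 180300 to 219300, 160600 to 191300 and 162500 to 193700 CPM. In WD + CHP vs. CD all 8 slow fibre genes were positive (median 0.37) and 1 of 8 fast fibre genes was (median -0.19). With all libraries 0 of either list were called there, and without WD replicate 5 1 fast fibre gene was higher. Among 8 white adipocyte genes, 4 were higher and 1 lower in WD vs. CD and 4 were lower in WD + CHP vs. WD, with sums of 1103 to 1532, 1083 to 1553 and 929.2 to 1344 CPM. When WD replicate 5 was left out, the ranges of WD were 3772 to 7053 CPM for slow fibre genes and 1083 to 1553 CPM for adipocyte genes, the adipocyte counts were the same, and 1 of 8 fast fibre genes was higher and 2 lower in WD vs. CD, against 0 called with all libraries. Fibroblast markers summed to 383.8 to 611.9 CPM in CD, 348 to 579.3 CPM in WD and 318.4 to 424.2 CPM in WD + CHP, and in WD + CHP vs. CD all 3 were negative (median -0.57) with 1 lower, Dcn (adjusted p = 0.00458). In that comparison 1 white adipocyte gene was higher (Lep) and 1 lower (Cfd), and the brown adipocyte gene Cidea was higher (1.98). Cidea was also called higher in WD vs. CD, at 2.12 and, without WD replicate 5, at 2.05. The part of these cells in the muscle results was not tested.

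Whether the diet or CHP acted differently in the tissues was tested as an interaction over all 30 libraries. For WD vs. CD, gastrocnemius minus kidney, 0 members were called by edgeR, against 4.13% of all genes, and 1 was called by DESeq2. An unadjusted p under 0.05 was found for 4 members and for 3306 of all 18708 genes. Cox6b2 was at -1.32 ± 0.437 (adjusted p = 0.0868), Cox6a2 at -0.99 ± 0.336 (adjusted p = 0.0960) and Ndufa4l2 at -0.48 ± 0.208 (adjusted p = 0.207). Without gastrocnemius WD replicate 5 the members called were 2, Cox6a2 (-1.25, adjusted p = 0.00431) and Cox6b2 (-1.58, adjusted p = 0.0471), and without gastrocnemius CD replicate 4 1 was. The Cox6b2 value rested on gastrocnemius CD replicate 5, at 1.08 CPM with the other CD libraries at 0.122 to 0.322 CPM and the WD libraries at 0.129 to 0.364 CPM. It was -0.59 (adjusted p = 0.378) without that library and -0.85 (adjusted p = 0.133) without both, where Cox6a2 kept its call (-1.27, adjusted p = 0.00476). For WD + CHP vs. WD 0 members were called by edgeR, against 0.347% of all genes, and 1 was called by DESeq2 (Uqcrc1). An unadjusted p under 0.05 was found for 5 members and for 2201 of all 18708 genes. Uqcrc1 was at 0.24 ± 0.072 (adjusted p = 0.135), Ndufs7 at 0.26 ± 0.101 (adjusted p = 0.291) and Atp5d, the delta subunit of ATP synthase, at 0.19 ± 0.093 (adjusted p = 0.407). With all libraries, the member calls made in 1 tissue alone are therefore not shown to be particular to it. For Cox6a2, called in kidney, the diet interaction was called only in fits without gastrocnemius WD replicate 5.

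Kidney and muscle differed far more in subunit isoforms than any diet group did. In CD libraries 78 members were called between the tissues, against 88.1% of all genes, with 55 nuclear and 4 mitochondrial members higher in gastrocnemius (41.5% of all genes) and 14 and 5 lower (46.6% of all genes). Scaling to total counts in place of TMM gave 33 higher and 55 lower, and Ndufa4 (0.46 by TMM and -0.39 by total counts), Atp5g2 (0.73 and -0.12) and Cox7a2l (0.48 and -0.37) changed direction, so small tissue differences rest on the scaling. Differences near 1 were sensitive to settings too. Atp5g1 (1.07 to 1.17 with 1 library left out) and mt-Atp6 (0.99 to 1.13) fell to 0.26 and 0.20 in another setting and lost their calls. Cox6a2, Cox8b, Cox7a1, Cox6a1, Cox8a and mt-Nd6 kept direction and call in every alternative tried. Cox6a2 was higher in gastrocnemius by 8.65 ± 0.257 on the log2 scale, Cox8b by 8.25 ± 0.629 and Cox7a1, the heart and muscle form of subunit VIIa, by 3.14 ± 0.331. Their general counterparts Cox6a1 and Cox8a were lower by TMM, at -4.57 ± 0.099 and -4.82 ± 0.162. Of the mitochondrial members, mt-Nd6 was lower in gastrocnemius (-2.86 ± 0.255) while mt-Co1 was at 0.0088.

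Shares of an isoform within its pair, per kilobase of exon, do not depend on the scaling of a library. Cox6a2 made up 97.0% ± 0.284 (SD, n = 5) of the Cox6a pair in gastrocnemius CD, 96.6% ± 0.667 in WD and 96.6% ± 0.275 in WD + CHP. In kidney it made up 0.336% ± 0.110, 0.713% ± 0.192 and 0.498% ± 0.118. The muscle form thus dominated muscle and was under 1% in every kidney library, with the highest mean in WD. Cox8b took 86.2% ± 0.825 of the Cox8 pair in gastrocnemius CD, 84.2% ± 4.57 in WD and 84.8% ± 1.19 in WD + CHP, and at most 0.314% in any kidney library. Cox7a1 took 46.1% ± 4.97 in gastrocnemius CD, 51.1% ± 10.1 in WD and 50.9% ± 2.81 in WD + CHP, and 7.09% ± 1.03, 7.41% ± 0.962 and 7.04% ± 0.803 in kidney. Leaving out WD replicate 5 (n = 4), the WD means in gastrocnemius were 96.3% ± 0.339 for Cox6a2, 82.3% ± 1.65 for Cox8b, 46.9% ± 3.98 for Cox7a1 and, among the subunit c genes described next, 17.1% ± 1.19 for Atp5g1. Groups overlapped within each tissue for Cox7a1 and, with all libraries, for Cox8b. Without WD replicate 5 the Cox8b share of the WD libraries, at 81.2 to 84.7%, lay below that of the CD libraries, at 85.4 to 87.6%, and no test was made of this difference. The lung and hypoxia form Cox4i2 stayed at or under 0.732% of the Cox4 pair in both tissues. Cox6b2 took 0.797% ± 0.085 of its pair in kidney CD and 0.924% ± 0.089 in kidney WD, and Ndufa4l2 1.36% ± 0.203 and 1.77% ± 0.188. Dividing by the longest transcript in place of the union of exons gave Cox6b2 1.31% and 1.52%, and lowered Cox4i2 in kidney CD from 0.347% to 0.184%.

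The 3 subunit c genes give the same mature protein from different precursors. Atp5g3 made up 64.0% ± 1.48 of their summed level per kilobase in kidney CD and 67.4% ± 1.87 in gastrocnemius CD. Atp5g1 made up 17.0% ± 0.641 in kidney CD, 18.3% ± 0.587 in kidney WD and 18.1% ± 0.733 in kidney WD + CHP, and 17.5% ± 0.816, 18.1% ± 2.51 and 19.0% ± 0.844 in gastrocnemius. Atp5g3 was thus the most abundant of the 3 in both tissues. With the longest transcript as length Atp5g1 took 7.97% and Atp5g3 72.9% in kidney CD.

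**Figure D5:**
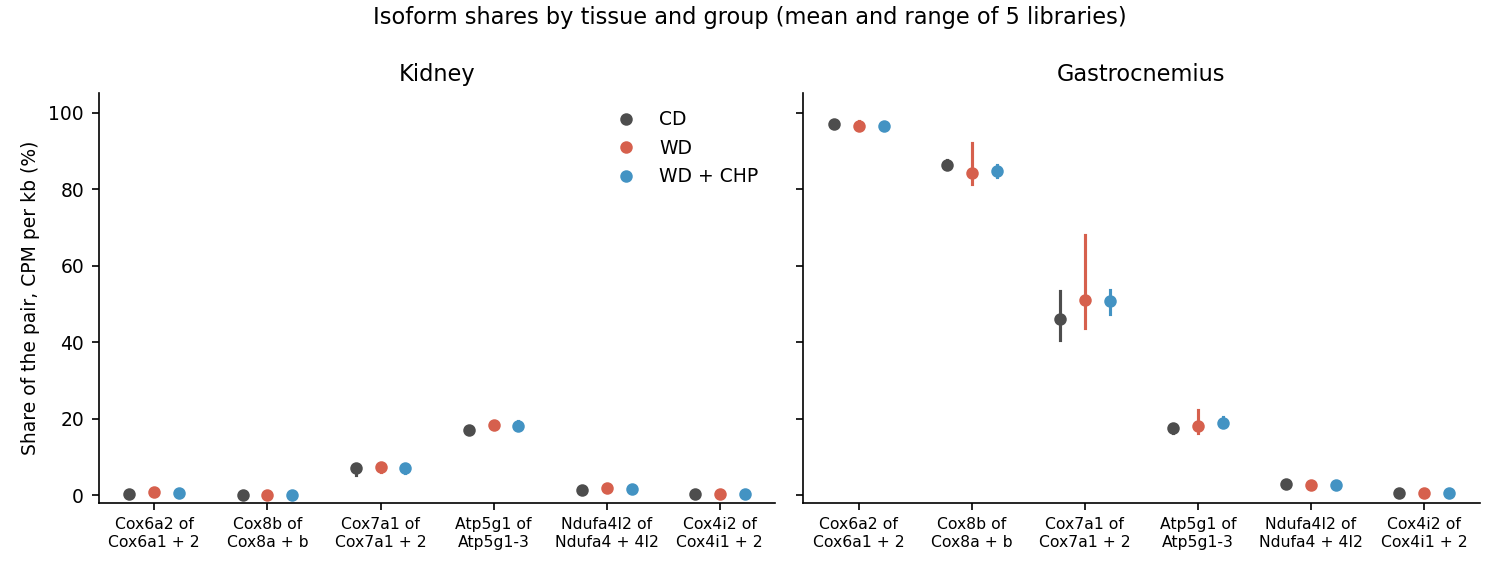
Share in percent (y axis) of the muscle or tissue-restricted form within its pair, or of a subunit c gene among its 3, computed per kb of exon, by tissue and group (x axis). Points are means and bars the range of 5 libraries. Cox6a2 and Cox8b lie near the top in gastrocnemius and near 0 in kidney.

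The other genes of the pathway were taken from 5 lists. In kidney WD vs. CD, where 9.65% of all genes were called, 3 of 43 assembly factors tested were higher and 1 lower (median 0.04), including Sco1, which delivers copper to complex IV (0.20 ± 0.048, adjusted p = 0.0164), and Ndufaf4, a complex I assembly factor (0.18 ± 0.051, adjusted p = 0.0364). Of 25 genes for expression of the mitochondrial genome, 0 were higher and 3 lower (median -0.01), among them Polg2, the accessory subunit of its polymerase (-0.29 ± 0.070, adjusted p = 0.0150). Of 16 genes for electron carriers and coenzyme Q, 1 was lower, Coq8a of coenzyme Q synthesis (-0.44 ± 0.086, adjusted p = 0.00493). Of 8 genes for uncoupling and shuttling, 1 was higher, the ADP/ATP carrier Slc25a4 (0.22 ± 0.050, adjusted p = 0.0120). Cycs, cytochrome c, was at 0.23 ± 0.096 (adjusted p = 0.136).

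Of 12 transcription regulators, 1 was higher in kidney WD vs. CD. This was Esrra, the oestrogen-related receptor alpha, which measured 63.9 to 67.1 CPM in CD, 73.4 to 86.5 CPM in WD and 70.6 to 88.7 CPM in WD + CHP. Neither western diet group overlapped CD, at 0.27 ± 0.059 (adjusted p = 0.00873) in WD vs. CD and 0.26 ± 0.059 (adjusted p = 0.0103) in WD + CHP vs. CD. Ppargc1a, the coactivator PGC-1 alpha, was at 0.08 ± 0.089 (adjusted p = 0.613) and Tfam, which packages and transcribes mitochondrial DNA, at -0.07 ± 0.037 (adjusted p = 0.279) in WD vs. CD. In WD + CHP vs. WD no gene of the 5 lists was called in either tissue by edgeR. In kidney WD + CHP vs. CD, where 12.1% of all genes were called, 1 of 43 assembly factors was higher (Ndufaf4), 1 gene of mitochondrial genome expression higher (Lrpprc, which stabilises mitochondrial transcripts, 0.18 ± 0.042, adjusted p = 0.0130) and 3 lower, 1 electron carrier gene higher (Cycs, 0.33 ± 0.096, adjusted p = 0.0373) and 1 lower, and no gene for uncoupling and shuttling was called.

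In gastrocnemius WD vs. CD, where 4.67% of all genes were called higher, 3 of 16 electron carrier genes were higher, led by Etfdh (0.50 ± 0.072, adjusted p = 0.000469) and Etfa (0.34 ± 0.057, adjusted p = 0.00152), which pass electrons from fatty acid oxidation to ubiquinone. Of 44 assembly factors 2 were higher, including Ndufaf1 (0.28 ± 0.049, adjusted p = 0.00200), and of 12 regulators 2 were higher. Of 8 uncoupling and shuttling genes 2 were higher, including the ADP/ATP carrier Slc25a5 (0.28 ± 0.059, adjusted p = 0.00657), and 1 was lower, the muscle uncoupling protein gene Ucp3 (-0.58 ± 0.113, adjusted p = 0.00445). None of 26 genes for mitochondrial genome expression was called by edgeR. Without WD replicate 5 the counts were the same but for 1 regulator higher, and Etfdh (0.52, adjusted p = 0.000814), Etfa (0.34, adjusted p = 0.00305), Ndufaf1 (0.24, adjusted p = 0.00351), Slc25a5 (0.27, adjusted p = 0.0136) and Ucp3 (-0.51, adjusted p = 0.0101) were called again. The diet interaction, gastrocnemius minus kidney, called 4.13% of all genes. In it 3 of 16 electron carrier genes (Etfdh, Coq8a and Etfa) and 1 of 44 assembly factors (Ndufaf1) were higher. Of 9 uncoupling and shuttling genes 1 was lower (Vdac2), and no regulator or gene of mitochondrial genome expression was called.

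In gastrocnemius WD + CHP vs. CD, where 4.85% of all genes were called higher, 6 of 44 assembly factors, 1 of 26 genes of mitochondrial genome expression, 4 of 12 regulators, 5 of 16 electron carrier genes and 2 of 8 uncoupling and shuttling genes were higher and none of these lists held a lower one. Leaving out WD replicate 5 gave the same counts but for 2 genes of mitochondrial genome expression higher. Esrra measured 70.9 to 89.98 CPM in CD, 76.6 to 101.3 CPM in WD and 94.5 to 119.4 CPM in WD + CHP. The WD + CHP libraries lay above all CD libraries (0.34 ± 0.086, adjusted p = 0.0204), while WD vs. CD gave 0.15 (adjusted p = 0.314), and 0.11 (adjusted p = 0.494) without WD replicate 5. Perm1, a muscle regulator of oxidative genes, was higher by 0.49 ± 0.092 (adjusted p = 0.00384), Coq5 of coenzyme Q synthesis by 0.25 ± 0.044 (adjusted p = 0.00219) and Slc25a5 by 0.40 ± 0.059 (adjusted p = 0.000882). Ppargc1a was at 0.18 ± 0.169 (adjusted p = 0.548).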

How the data were processed

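Kidney and gastrocnemius poly(A) RNA from 30 mouse tissue samples was sequenced on a BGISEQ-500, and the authors used SOAPnuke for read filtering, FastQC for quality control and STAR 2.7.3a for alignment to GRCm38 (mm10, per the labels). The deposited values are raw counts of reads per gene, 1 table per tissue. The counting tool, its annotation and its use of strand are not given in the sources used here. The labels describe frozen liver as starting material for all samples, and the study's methods name the tissues. Columns of sample values left unused numbered 0.

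Groups were taken from the labels, with 5 libraries each. Per the study's methods RNA of each mouse was sequenced, so p-values measure the spread between mice. All 30 pairs of libraries within a group in each tissue differed beyond sampling noise (chi-square per degree of freedom at least 9.06). Counts were filtered (filterByExpr, minimum count 10), TMM-scaled and tested with edgeR 4.0.16 (quasi-likelihood test, two-sided, Benjamini-Hochberg over all genes tested in the fit, threshold 0.05) in R 4.3.3, over the 15 libraries of a tissue or, for interactions and the CD tissue comparison, all 30. The study's own methods used limma. Alternatives were DESeq2 1.42.0, limma 3.58.1, other scalings and filters, a replicate block, a length and GC offset (mgcv 1.9.3), fits to the compared groups only and fits without each library. The scripts were tested on simulated data. Of genes given a log2 fold change of 0.25, 24% were called in kidney WD vs. CD, 5% in gastrocnemius WD vs. CD and 0% in the diet interaction. At 0.5 the shares were 76%, 73% and 34%. A count of 0 called members therefore does not show that small changes were absent. Gene positions and lengths came from GENCODE M21, promoter windows from RefSeq, and near-identical copies from BLAST+ 2.17.0 at 90% identity or more. Library averages used log2(CPM + 0.5), a scale computed here.

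The members and all lists (assembly factors, mitochondrial genome expression, transcription regulators, electron carriers and coenzyme Q, uncoupling and shuttling, and cell type markers) were chosen with earlier results of these data known. Named genes were all mitochondrial members, the isoform pairs and subunit c genes, per comparison the 10 called nuclear members with the smallest p and the 3 with the largest fold change in each direction (the 3 with the smallest p where fewer passed), the 5 called genes of the other lists with the smallest p, and Ppargc1a, Esrra, Tfam and Cycs. Other names were chosen after their values were seen. The outlier check of 1 named gene is not reported here.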

Additional observations from a re-analysis of the deposited data

Results flagged for a closer look

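Each group of 5 libraries was tested for a highest or lowest library that stood off from the rest (gap over range above 0.71), over 411 groups of library averages and named genes. This picked out 33 values, and chance picks out about 1 in 20 groups.

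Gastrocnemius WD replicate 5 accounted for 16 of them, each the highest of its group. Its average over the mitochondrial members was 0.58 above the CD mean on the log2 scale. In CPM the library reached 67.1 for Ndufa3, 297 for Sdhb, 159 for Uqcrb, 152 for Uqcrh and 223 for Cox5b. In the isoform and subunit c genes it reached 514 for Cox6a2, 202 for Cox6b1, 99.3 for Cox7a1, 82.1 for Cox7a2, 121 for Cox8b, 380 for Atp5g1 and 119 for Atp5g2. Atp5h stood at 179, mt-Nd3 at 5.72 and mt-Atp8 at 0.747.

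Kidney WD replicate 2 was the lowest of its group for the complex II average, at 0.0196 with the others at 0.11 to 0.14, and for Sdhb (227 CPM), Cox4i1 (256 CPM) and Cox6b1 (237 CPM). Further kidney values were Sdhd at 140.4 CPM in CD replicate 4, Cox5a at 96.7 CPM in CD replicate 3, Atp5g2 at 68.2 CPM in WD replicate 4, and Cox8b at 0.569 CPM in WD replicate 5 and 0.785 CPM in WD + CHP replicate 5.

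In gastrocnemius CD, replicate 1 stood off for Ndufb4 (27.8 CPM) and Ndufv2 (155 CPM) and replicate 2 for Ndufv1 (271 CPM). CD replicate 5 stood off for the testis isoforms Cox6b2, at 1.08 CPM with the others at 0.122 to 0.322, and Cox8c, at 0.826 CPM with the others at 0. Atp5a1 stood at 2114 CPM in WD replicate 3, mt-Nd6 at 173 CPM in WD + CHP replicate 2, and the complex II average at 0.0837 in WD + CHP replicate 1.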

How the results depend on the processing

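Leaving out 1 library at a time gave 5 to 31 called members for kidney WD vs. CD, 0 to 0 for WD + CHP vs. WD and 2 to 22 for WD + CHP vs. CD, and in gastrocnemius 0 to 3, 0 to 1 and 6 to 29. The interactions gave 0 to 2 for the diet and 0 for CHP, and the CD tissue comparison 76 to 78. Total-count scaling gave 8 and 2 in kidney WD vs. CD and WD + CHP vs. CD and 9 in gastrocnemius WD vs. CD, and moved the median of complex II in kidney WD + CHP vs. CD to 0.03. No count filter gave 9, 6 and 0 there. DESeq2 called 30 and 25 in kidney WD vs. CD and WD + CHP vs. CD, 4, 2 and 25 in gastrocnemius WD vs. CD, WD + CHP vs. WD and WD + CHP vs. CD, and 1 in each interaction. Fits to the compared groups only gave 5 in kidney WD + CHP vs. CD, and 0 and 28 in gastrocnemius WD vs. CD and WD + CHP vs. CD. The length and GC offset gave 4 in gastrocnemius WD vs. CD (10.7% of all genes called) and, with the replicate block, 20 in kidney WD + CHP vs. CD and 1 in gastrocnemius WD + CHP vs. WD. Fits without gastrocnemius WD replicate 5 combined with that offset, chosen after seeing the data, gave 1 and 31 in gastrocnemius WD + CHP vs. WD and WD + CHP vs. CD. Ndufa4 (-0.39), Atp5g2 (-0.12) and Cox7a2l (-0.37) reversed between tissues under total-count scaling. The cause of these shifts was not tested. Except where stated, these counts are given without the share of all genes called in the same fit. They therefore do not show whether the members shifted apart from other genes. For named genes, 580 of the other checks of settings kept direction and call and 75 lost the call, and of the checks that left out 1 library 509 kept both and 161 lost the call.

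Samples with the same replicate number did not deviate together (correlations of -0.193 to 0.248 in kidney and -0.185 to 0.211 in gastrocnemius), with 4 and 3 libraries correlating best with their own number, so the numbers do not pair them. The replicate block gave 18, 0 and 15 called members in kidney, 0, 0 and 11 in gastrocnemius, and 1 in the diet interaction.

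Isoform shares depend on the length used, and 32 of 48 moved by more than 1 SD with the longest transcript. The 7 abundant mitochondrial genes had at least 100000 counts in each tissue, while Cox6b2, Cox4i2 and, in kidney, Cox8b and Cox6a2 rest on few reads.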
